A study of Homo sapiens with 30 samples.

Results

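The mTOR kinase works inside separate protein complexes, and the genes described here encode their subunits. The members were taken by name: the kinase MTOR, the mTORC1 scaffold RPTOR, the mTORC2 subunits RICTOR, MAPKAP1 and PRR5, the PRR5 relative PRR5L, MLST8, which sits in both complexes, and DEPTOR, an inhibitor of both. These 8 genes had 15 probes on the array, out of 20046 genes with a probe of a single gene symbol. After a filter on detection, 13 probes of 6 genes remained, among 12482 genes that could be tested. RICTOR and PRR5L did not pass it. PRR5 was chosen by its response, since the study listed it as upregulated by CHOEP in these same arrays, with a fold change of at least 2 in at least 2 lines. Its CHOEP changes are therefore described without a test. The other 7 members were chosen for what they encode.

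mTORC1, assembled on RPTOR, promotes protein synthesis and restrains autophagy when amino acids and growth factors are present. mTORC2, assembled on RICTOR and MAPKAP1 (also called SIN1), phosphorylates AKT, SGK1 and protein kinase C. In T cells both complexes act downstream of the T-cell receptor and PI3K. PRR5, also named Protor-1, binds RICTOR, and mTORC2 can be assembled without it.

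The 30 arrays came from 5 malignant T-cell lines, each with 3 CHOEP-treated and 3 untreated cultures. CHOEP is a mixture of cyclophosphamide, doxorubicin, vincristine, prednisone and etoposide, and the treated cultures of HD-MAR-2 and JURKAT (T-cell leukaemia), SUP-T1 (lymphoblastic lymphoma), KARPAS-299 (anaplastic large cell lymphoma) and HH (cutaneous lymphoma) received it for 24 h at the IC50. The untreated cultures were of the same lines. Each disease is represented by only 1 or 2 cultured lines, and cyclophosphamide needs liver enzymes for its activation.

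RNA was hybridised to 1-colour Illumina BeadChips. Levels are background-corrected, quantile-normalised log2 signals, and a probe counts as detected on an array at a detection p under 0.01 against the negative controls. An array detected 16003 to 18239 probes, and the lowest detected level lay between 5.92 and 6.43 on the log2 scale, depending on the array. Of 8 T-cell marker genes, 8 were detected on all arrays of HD-MAR-2, SUP-T1 and JURKAT, 6 in HH and 3 in KARPAS-299, where 4 were detected on no array. Of 3 B-cell marker genes, 2 were detected on all arrays of each line except KARPAS-299, where 1 was. Of 4 myeloid marker genes, 2 were detected on all arrays of HH, JURKAT and KARPAS-299, and 1 in HD-MAR-2 and SUP-T1. The B-cell marker CD79B was detected on all arrays of every line, and the myeloid marker CSF1R stood at 10.74 to 11.3 in KARPAS-299. ALK, which is rearranged in KARPAS-299, was at 12.9 to 13.23 in that line and at most 6.37 elsewhere. Each line was run on a chip of its own, with the treatments at fixed positions, so chip and line, and position and treatment, cannot be told apart. The arrays read the RNA of a whole culture, so that a change in every cell and a change in the share of cells with a transcript cannot be told apart.

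PRR5 lies on chromosome 22 (44668751 to 44737681, GRCh38.p14, plus strand), and RefSeq places transcription starts of PRR5 at separate sites within it. The stretches just before 3 of these starts are printed because PRR5 is the member with the largest differences, both between lines and with CHOEP. Each run is the 250 bases upstream of a start, 5′ to 3′, from RefSeq on GRCh38.p14. Capitals mark an E-box, CACGTG, the letters bound by TFEB and other helix-loop-helix factors.
PRR5 start A, chr22:44668501-44668750: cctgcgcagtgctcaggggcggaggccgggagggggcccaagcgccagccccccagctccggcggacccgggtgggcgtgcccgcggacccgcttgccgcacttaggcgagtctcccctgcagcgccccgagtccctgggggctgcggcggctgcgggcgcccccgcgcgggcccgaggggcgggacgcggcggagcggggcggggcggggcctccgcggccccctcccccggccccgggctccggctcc
PRR5 start B, chr22:44676835-44677084: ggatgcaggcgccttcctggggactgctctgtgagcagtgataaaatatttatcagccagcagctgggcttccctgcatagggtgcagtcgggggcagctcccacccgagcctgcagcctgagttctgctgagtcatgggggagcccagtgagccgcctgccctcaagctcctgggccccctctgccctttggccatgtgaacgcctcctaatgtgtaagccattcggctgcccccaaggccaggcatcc
PRR5 start C, chr22:44701954-44702203: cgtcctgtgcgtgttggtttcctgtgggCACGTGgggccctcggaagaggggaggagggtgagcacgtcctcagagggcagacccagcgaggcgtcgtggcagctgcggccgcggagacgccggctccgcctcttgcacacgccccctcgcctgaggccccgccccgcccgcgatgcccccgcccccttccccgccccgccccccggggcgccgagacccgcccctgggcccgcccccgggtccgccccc

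The stretches before starts A and C were rich in G and C (84.4% and 78.8%), and that before start B less so (62.4%), against a median of 58% over 35116 such stretches of all genes. Besides the E-box, which reads the same on both strands, 2 other motifs were searched on both strands and counted separately, though their matches can overlap by a letter: AGAACA, the core hexamer recognised by the glucocorticoid receptor, which prednisone acts on, and GTAAACA, recognised by FOXO factors, which AKT phosphorylates. The E-box stood before start C, which RefSeq also gives as the start of the readthrough gene PRR5-ARHGAP8, and 6.34% of all stretches hold one. AGAACA was in 0 of the 3 PRR5 stretches and in 12.4% of all, and GTAAACA was in 0 of the 3 and in 2.98% of all. These are letters in windows and not measured binding sites. The files do not pair the array probes with the starts, so no probe is assigned to one.

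PRR5 had 4 probes, of which the platform pairs ILMN_1692664 and ILMN_1660017 with the same RefSeq transcript and the others with a different one each. With probe ILMN_1692664, the brightest, CHOEP-treated SUP-T1 cultures had log2 levels of 11.98, 11.69 and 12.28, against 9.65, 9.83 and 9.58 in untreated SUP-T1. The groups did not overlap, and the difference was 2.30 (4.92-fold), the largest of any line. In HD-MAR-2, where PRR5 was already bright, the levels were 13.89, 13.59 and 13.86 with CHOEP and 12.77, 12.60 and 12.70 without, a difference of 1.09 (2.1-fold). KARPAS-299 had 10.58, 10.76 and 10.81 with CHOEP and 9.93, 10.17 and 9.87 without, a difference of 0.73 (1.66-fold). These 3 lines each had all CHOEP-treated cultures above all untreated ones. Before normalisation the ratio of mean signals, CHOEP to untreated, was 3.45 in SUP-T1, 1.51 in HD-MAR-2 and 1.52 in KARPAS-299. The median signal of an array was 81.1 to 90.9 in treated and 100.8 to 103.9 in untreated HD-MAR-2. By this probe and processing HD-MAR-2 lay inside the 2-fold threshold by which the study chose the gene, and KARPAS-299 outside it. The study applied that threshold to its own normalised values. HD-MAR-2 stood further inside by ILMN_1660017 (2.93-fold) and ILMN_1720300 (2.96-fold). Under scaling to the median of all probes its difference by ILMN_1692664 was 0.81 on the log2 scale, below 2-fold.

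JURKAT and HH did not share this pattern. JURKAT had 9.27, 9.52 and 9.38 with CHOEP and 9.56, 9.38 and 9.01 without, and these groups overlapped (difference 0.07, standard error 0.14). HH had 6.27, 6.34 and 6.06 with CHOEP and 6.7, 6.72 and 6.5 without, so that its treated cultures were all lower, by 0.42 on the log2 scale (standard error 0.14). Those HH levels are at the limit of detection: the probe was detected in 2 of 3 treated and 3 of 3 untreated HH cultures. Before normalisation the signals of HH were 141.8, 153.4 and 135.9 with CHOEP and 168.8, 160.7 and 145.5 without, which overlapped.

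**Figure D1:**
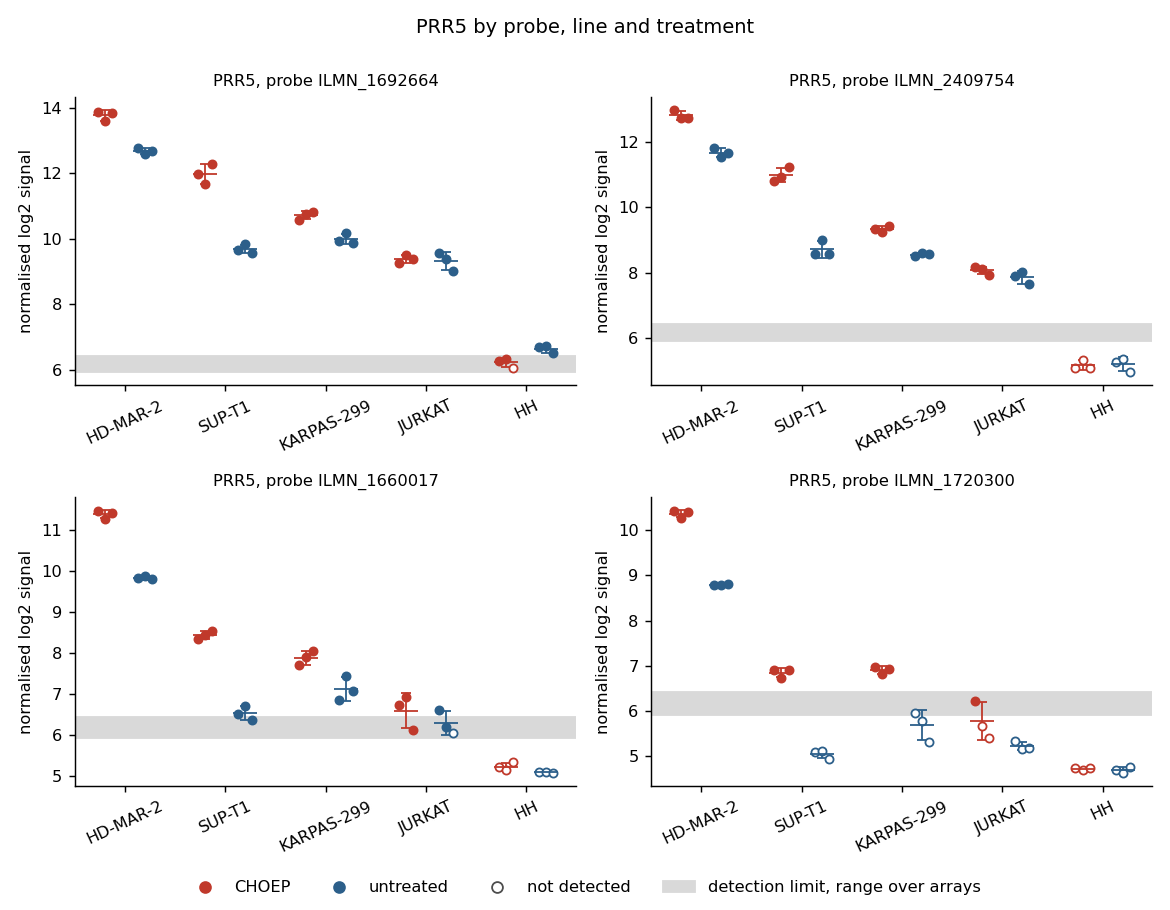
Normalised log2 signal of the 4 PRR5 probes (1 panel each) in 5 lines, CHOEP in red and untreated in blue, with each culture as a point, the mean as a bar and the SD as error bar (n = 3). Open points were not detected, and the grey band spans the lowest detected level of the arrays (5.92 to 6.43). In HD-MAR-2, SUP-T1 and KARPAS-299 the treated points lie above the untreated points in all 4 panels, and in HH 3 of 4 probes were detected on no array.

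The order of HD-MAR-2 and SUP-T1 by their changes depended on the probe and on the processing. Probe ILMN_2409754 had its largest difference in SUP-T1 (2.27), followed by HD-MAR-2 (1.14), KARPAS-299 (0.79) and JURKAT (0.20), and it was detected on 24 of 30 arrays, none of them from HH. Probe ILMN_1660017 differed by 1.91 (SUP-T1), 1.55 (HD-MAR-2), 0.76 (KARPAS-299) and 0.30 (JURKAT), and was detected on 23 arrays, again none from HH. With the authors' values HD-MAR-2 came first by this probe (1.47, against 1.29 for SUP-T1), and likewise without background correction (1.48, against 1.35). ILMN_1692664 and ILMN_2409754 kept SUP-T1 first with the authors' values, at 2.16 and 2.08. Probe ILMN_1720300, the dimmest, was detected on 13 arrays. It read 6.91, 6.73 and 6.90 in CHOEP-treated SUP-T1 and was not well above background in untreated SUP-T1 (5.10, 5.11 and 4.94), which puts it at least 1.61-fold higher with CHOEP. In KARPAS-299 it read 6.98, 6.81 and 6.93 with CHOEP and was not well above background without (5.96, 5.79 and 5.32), at least 1.48-fold higher. Such a bound sets the undetected group at the lowest level detected on each of its arrays, or at the probe's own signal where higher. With the authors' normalised values the differences of this dim probe were smaller, at 0.93 for SUP-T1 and 0.62 for KARPAS-299, and its largest was that of HD-MAR-2 (1.44). In HD-MAR-2 the normalised levels differed by 1.57, with means of 10.36 ± 0.08 with CHOEP and 8.79 ± 0.02 without (SD, n = 3). In JURKAT it was detected in 1 of 3 treated and 0 of 3 untreated cultures. Across the 30 arrays the 6 pairs of PRR5 probes had Pearson correlations between 0.887 and 0.996, a description over arrays that share lines and treatments.

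A neighbouring signal was higher with CHOEP in SUP-T1 and HD-MAR-2. PRR5-ARHGAP8, a readthrough transcript that joins PRR5 to the downstream gene ARHGAP8, has a probe that was detected on 19 arrays. It stood at 8.14 ± 0.29 with CHOEP and 6.56 ± 0.07 without in SUP-T1, and at 10.49 ± 0.11 with CHOEP and 9.21 ± 0.06 without in HD-MAR-2. The SUP-T1 difference was thus 1.59 and the HD-MAR-2 difference 1.28. In KARPAS-299 it was 0.31, the probe was detected on 1 JURKAT array, and it was not detected in HH. It was followed because it neighbours PRR5, and its differences are described without a p-value. ARHGAP8 itself was detected by 0 of its 3 probes on any array. The readthrough transcript holds PRR5 exons, and its part in the signal of the PRR5 probes was not tested.

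Untreated PRR5 levels spanned the widest range of the members. With ILMN_1692664 the untreated means were, from high to low, 12.69 ± 0.08 in HD-MAR-2, 9.99 ± 0.16 in KARPAS-299, then 9.68 ± 0.13 in SUP-T1, 9.32 ± 0.28 in JURKAT and 6.64 ± 0.12 in HH (SD, n = 3). HD-MAR-2 exceeded HH by 6.05 on the log2 scale, or 66.4-fold (adjusted p = 3.8e-23 from limma), and KARPAS-299, the next line, by 2.70 (6.51-fold, adjusted p = 1.71e-15). The fold against HH moves with the processing, since HH lies near the detection limit: the scanner signals differed 47.7-fold and the authors' normalised values 37.1-fold. KARPAS-299 and SUP-T1 are the neighbours in this order that did not differ beyond their spread (0.30, adjusted p = 0.0608), and SUP-T1 was above JURKAT by 0.37 (adjusted p = 0.0281). Probe ILMN_2409754 put SUP-T1 above KARPAS-299 instead, by 0.17 (adjusted p = 0.292). By that probe, detected on no HH array, HD-MAR-2 was at least 40.2-fold above HH on the background-corrected, normalised scale, whereas the scanner signals, which still hold the background, differed 37.8-fold and the authors' values 30.2-fold. The CHOEP change by ILMN_1692664 did not follow this order: the largest was in SUP-T1, in the middle of the range.

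The genes whose pattern over the 30 arrays was most like that of ILMN_1692664, by Pearson correlation among 12476 genes, were DNTTIP1 (0.964), PBX2 (0.952), VHL (0.951), MPI (0.946) and IKBKE (0.946). Like PRR5, all 5 were lowest in HH and highest in HD-MAR-2. DNTTIP1, a subunit of a histone deacetylase complex, averaged 12.09 in treated and 11.88 in untreated HD-MAR-2, against 9.46 in treated and 9.37 in untreated HH. The 30 points share lines, chips and treatments, so the correlations are a description.

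**Figure D2:**
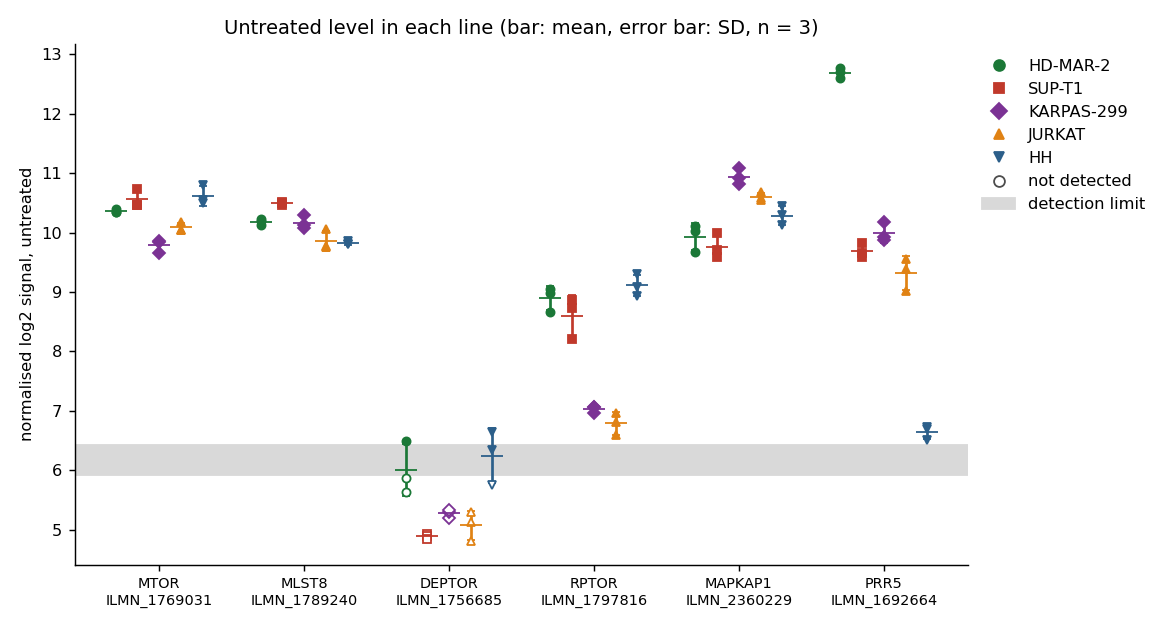
Untreated log2 level of the brightest kept probe of each of 6 members in 5 lines (marker and colour by line, bar for the mean, error bar for the SD, n = 3), with undetected cultures as open markers and the detection limit as a grey band. PRR5 is at 12.69 in HD-MAR-2 and 6.64 in HH, RPTOR at 9.11 in HH and 6.79 in JURKAT, and MTOR and MLST8 stay within 1 unit.

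Untreated levels of all 6 tested members differed between lines (F test, adjusted p under 0.05), but so did those of 95.5% of all genes tested. Of their 60 pairwise comparisons of lines 47 passed, against 66.7% of such comparisons over all genes. The kinase MTOR was highest in HH (10.61) and lowest in KARPAS-299 (9.78), a range of 0.83, and MLST8, which stabilises the kinase domain, was highest in SUP-T1 (10.49) and lowest in HH (9.82), a range of 0.67. Both ranges were below the median range over all genes, 1.49. HH and SUP-T1 did not differ in MTOR beyond their spread (0.06, adjusted p = 0.624), nor did JURKAT and HH in MLST8 (0.04, adjusted p = 0.742). Signals of different probes are not compared with each other, since probes differ in how brightly they hybridise.

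RPTOR differed more between lines. With probe ILMN_1797816 the untreated levels were 8.94, 9.30 and 9.09 in HH and 9.05, 8.66 and 8.98 in HD-MAR-2, while SUP-T1 had 8.73, 8.87 and 8.20. KARPAS-299 had 7.07, 6.96 and 7.07, and JURKAT had 6.97, 6.59 and 6.81. The cultures of HH, HD-MAR-2 and SUP-T1 all lay above those of KARPAS-299 and JURKAT. HH exceeded JURKAT by 2.33 (5.01-fold, adjusted p = 5.86e-12), whereas HH and HD-MAR-2 (0.21, adjusted p = 0.295) and KARPAS-299 and JURKAT (0.24, adjusted p = 0.25) did not differ beyond their spread. The other RPTOR probe, ILMN_1793514, split the lines the same way: it was detected in untreated HH, HD-MAR-2 and SUP-T1 and on no array of KARPAS-299 or JURKAT. By it HH was at least 1.98-fold above JURKAT on the background-corrected, normalised scale, and the scanner signals differed 1.43-fold and the authors' values 1.73-fold. This difference is given without a p-value, since the probe passed the detection filter only through HH, HD-MAR-2 and SUP-T1.

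The 3 probes of MAPKAP1, a scaffold of mTORC2, were detected on all 30 arrays and agreed on the top of the order but not on its spread. KARPAS-299 was highest by each: with ILMN_2360229 it stood at 10.94 ± 0.14, against 9.76 ± 0.21 in SUP-T1, the lowest line, a difference of 1.18 (adjusted p = 4.87e-09). With ILMN_2268068 its untreated levels were 11.17, 11.15 and 11.11, against 7.84, 8.0 and 8.27 in HH. All KARPAS-299 cultures lay well above those of HH, by 3.11 on the log2 scale (8.62-fold, adjusted p = 2.32e-16). With ILMN_1691526 the whole range between the lines was 0.88. The platform pairs ILMN_2360229 and ILMN_2268068 with the same MAPKAP1 transcript, and which transcripts each probe captures was not tested.

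DEPTOR was near or below detection. Probe ILMN_1756685 was detected on 9 arrays and ILMN_2172755 on 6, all of them from HD-MAR-2 and HH. With ILMN_1756685, detected in 2 of 3 untreated HH cultures, untreated HH was at least 1.11-fold above untreated JURKAT. The scanner signals differed 1.38-fold and the authors' values 1.53-fold. No p-value is given for this difference, since the probe passed the detection filter only through HH and HD-MAR-2. By this probe untreated HH and HD-MAR-2 did not differ beyond their spread (0.25, adjusted p = 0.306). RICTOR, the defining subunit of mTORC2, was not well above background on any of the 30 arrays by its single probe ILMN_1705828, whose levels were 4.96 to 6.24. PRR5L, a PRR5 relative that also binds mTORC2, was likewise not detected on any array by ILMN_1697491, with levels of 4.58 to 5.42. A single probe that stays dark does not show that a transcript is absent.

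Whether CHOEP changed the members other than PRR5 was tested in 5 genes, each by its brightest probe, in 1 fit over all arrays with p adjusted over all 22652 kept probes. On average over the lines DEPTOR rose and MLST8 fell, and MTOR, RPTOR and MAPKAP1 did not pass. That is 1 of 5 up and 1 of 5 down, against 17.8% of all genes up and 20.1% down. The DEPTOR average includes JURKAT, KARPAS-299 and SUP-T1, where its probe was not detected. That probe passed the detection filter only through HH and HD-MAR-2, and with no filter its average had an adjusted p of 0.0044. Of the 25 pairs of a gene and a line, 3 rose and 3 fell. HD-MAR-2 had 2 up and 1 down (background 14.9% up, 15.8% down), and HH had 1 up and 2 down (9.89% up, 9.64% down). By its brightest probe no member passed in SUP-T1 (background 12.3% up, 13.9% down), in KARPAS-299 (2.8% up, 4.02% down) or in JURKAT (0.12% up, 0.024% down). A change of at least 2-fold was reached by 0 of the 5, against 8.5% of all genes in at least 1 line and either direction. With 5 genes these counts are too few to be set apart from the background.

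DEPTOR, which binds mTOR and inhibits it, had its changes in the lines where it was detected. With ILMN_2172755 the levels in HH were 6.60, 6.68 and 6.84 with CHOEP and 5.88, 5.55 and 5.62 without, and those in HD-MAR-2 were 6.29, 6.45 and 6.08 with CHOEP and 5.42, 5.14 and 5.41 without. The groups did not overlap in either line, and the probe was detected in all treated and no untreated cultures of both. DEPTOR was thus at least 1.3-fold higher with CHOEP in HH (adjusted p = 9.78e-06) and at least 1.18-fold higher in HD-MAR-2 (adjusted p = 1.88e-05). The probe passed the detection filter only through these treated groups, and with no filter the adjusted p was 1.82e-05 in HH and 3.41e-05 in HD-MAR-2. On the scanner scale the treated signals were 1.39 times the untreated ones in HH and 1.19 times in HD-MAR-2.

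The brighter DEPTOR probe, ILMN_1756685, changed in the same direction and less surely. In HD-MAR-2 its levels were 6.86, 6.63 and 6.57 with CHOEP and 6.49, 5.87 and 5.64 without, with 3 treated and 1 untreated culture detected and no overlap. It rose there by 0.68 (standard error 0.21, adjusted p = 0.0148) and by 0.63 in HH (standard error 0.21, adjusted p = 0.037), where 6.58, 7.01 and 7.03 with CHOEP overlapped 6.65, 6.34 and 5.75 without. Its average over the 5 lines was 0.39 (adjusted p = 0.00197), and that of ILMN_2172755 was 0.49 (adjusted p = 2.19e-06). Both averages include JURKAT, KARPAS-299 and SUP-T1, where neither probe was detected. The HD-MAR-2 call of ILMN_1756685 was lost without HD-MAR-2 CHOEP replicate 1 (0.60, adjusted p = 0.0677), untreated replicate 2 (0.62, adjusted p = 0.0545) or untreated replicate 3 (0.50, adjusted p = 0.106). The HH call was lost without HH CHOEP replicate 2 (adjusted p = 0.128) or 3 (adjusted p = 0.136), or untreated replicate 2 (adjusted p = 0.0614) or 3 (0.38, adjusted p = 0.265). The scanner signals of the HD-MAR-2 groups had a ratio of 1.02, and those of HH 1.25. Both calls were lost under scaling to the median of all probes (HD-MAR-2 0.52, adjusted p = 0.0784, and HH 0.57, adjusted p = 0.103). With the authors' values both differences were 0.32, and that of HH did not pass (adjusted p = 0.0605). The effect on ILMN_1756685 did not pass the F test between lines (adjusted p = 0.262), while ILMN_2172755 did (adjusted p = 0.000513, and 0.000881 with no filter). In JURKAT, KARPAS-299 and SUP-T1 both probes stayed undetected with and without CHOEP.

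RPTOR, the scaffold that brings substrates to mTORC1, fell in HH by both probes. With ILMN_1797816 the levels were 8.30, 8.38 and 8.23 with CHOEP and 8.94, 9.30 and 9.09 without. All treated cultures lay below all untreated ones, and the level fell by 0.81 (1.75-fold, standard error 0.18, adjusted p = 0.00168). With ILMN_1793514 it stood at 6.07, 6.47 and 6.22 with CHOEP and 6.93, 7.01 and 7.29 without, and fell by 0.83 (1.77-fold, standard error 0.17, adjusted p = 8e-04). RPTOR did not pass in any other line: with ILMN_1797816 the difference ranged from -0.26 in SUP-T1 to 0.27 in KARPAS-299. The effect on this probe differed between the lines (F test, adjusted p = 0.0188, against 35.1% of all genes passing that test). That call was lost under scaling to the median of all probes (adjusted p = 0.116) and without HH untreated replicate 2 (adjusted p = 0.0604). The F test of ILMN_1793514 gave an adjusted p of 0.0569. On average the brighter probe differed by -0.20 (adjusted p = 0.0573), and ILMN_1793514 by -0.27 (adjusted p = 0.00591). The average of ILMN_1793514 includes KARPAS-299 and JURKAT, where it was detected on no array. With arrays left out 1 at a time, the average of the brighter probe passed in 7 of the 30 fits. The HH call remained with each of the 30 arrays left out in turn, at an adjusted p of at most 0.0156 for ILMN_1797816.

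**Figure D3:**
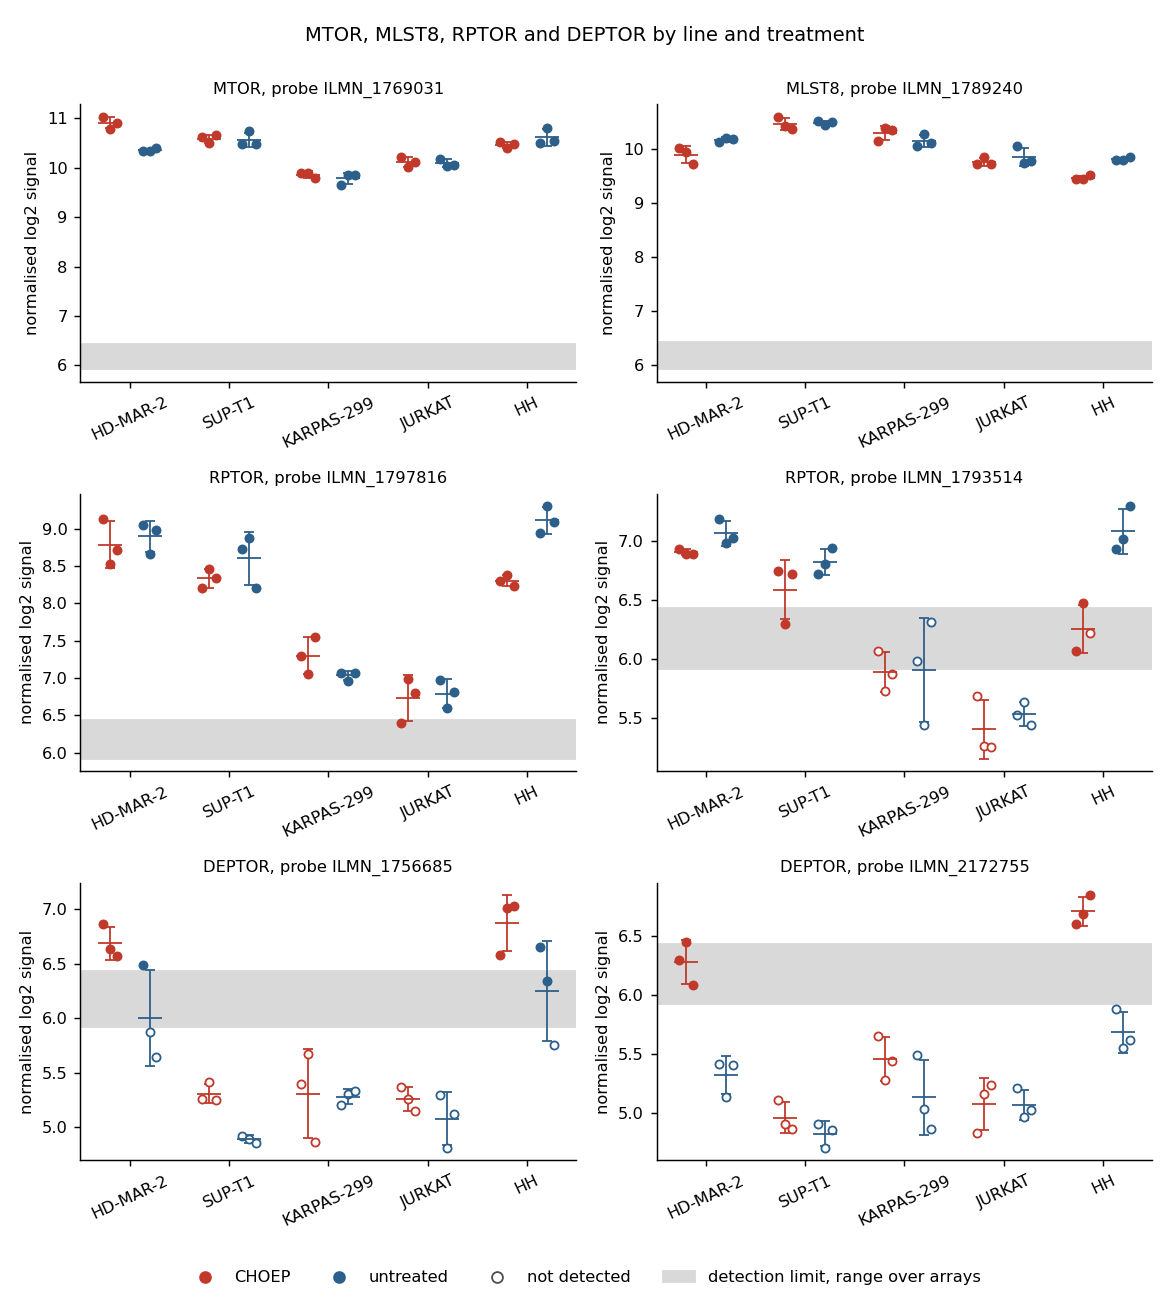
Normalised log2 signal of MTOR, MLST8, RPTOR (2 probes) and DEPTOR (2 probes) in 5 lines, CHOEP in red and untreated in blue, each culture as a point (open where not detected), bars for the mean and error bars for the SD (n = 3), with the detection limit as a grey band. RPTOR is lower with CHOEP in HH by both probes, and DEPTOR ILMN_2172755 crosses the detection limit with CHOEP in HH and HD-MAR-2.

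MTOR itself passed in HD-MAR-2, where its levels were 11.02, 10.79 and 10.91 with CHOEP and 10.34, 10.34 and 10.39 without. The groups did not overlap, and the difference was 0.55 (1.46-fold, standard error 0.10, adjusted p = 0.000196). This rise depends on the scaling between arrays. Before normalisation the signals were 1846.6, 1433.7 and 1599.5 with CHOEP and 1818.2, 1455.5 and 1561.5 without, which overlapped, with a ratio of means of 1.01. When arrays were scaled to the median of all probes the difference was 0.23 (adjusted p = 0.295), and with the median of probes detected on all arrays it was 0.54 (adjusted p = 0.000347). In the other lines MTOR differed by -0.16 to 0.07, and its effect differed between lines (F test, adjusted p = 0.00505), but not under scaling to the median of all probes (adjusted p = 0.414).

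MLST8 fell by 0.35 in HH (1.27-fold, standard error 0.10, adjusted p = 0.016) and by 0.27 in HD-MAR-2 (1.21-fold, standard error 0.10, adjusted p = 0.042). In HH the levels were 9.45, 9.46 and 9.52 with CHOEP and 9.81, 9.80 and 9.85 without, and in HD-MAR-2 they were 10.02, 9.96 and 9.73 with CHOEP and 10.13, 10.22 and 10.19 without. Neither pair of groups overlapped. The F test between lines gave an adjusted p of 0.0423. It did not pass under scaling to the median of all probes (0.308) or of detected probes (0.093), or with the replicate block (0.0847). With arrays left out 1 at a time, it did not pass in 17 of the 30 fits. The average over lines was -0.12 (adjusted p = 0.0439), a small change. Its call was lost in 17 of the 30 fits that each left out 1 array, at an adjusted p of up to 0.0859. The HH call was lost without HH CHOEP replicate 1 (adjusted p = 0.051) or 2 (adjusted p = 0.0524) or untreated replicate 3 (adjusted p = 0.0534). The HD-MAR-2 call was lost without any of CHOEP replicates 2 and 3 or the 3 untreated replicates, with an adjusted p of up to 0.234. With scaling to the median of all probes the HH call was lost (adjusted p = 0.247), and with the authors' values that of HD-MAR-2 (adjusted p = 0.0778) and of the average (adjusted p = 0.092).

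MAPKAP1 did not pass by its brightest probe in any line (-0.17 to 0.15) or on average (0.00, standard error 0.06, adjusted p = 0.967). Probe ILMN_2268068 was lower with CHOEP in SUP-T1 by 0.44 (standard error 0.15, adjusted p = 0.0336). Its levels there were 8.55, 8.83 and 8.42 with CHOEP and 8.70, 9.08 and 9.31 without, which overlap. That call was lost without SUP-T1 CHOEP replicate 1 (adjusted p = 0.0912) or 3 (adjusted p = 0.156), or untreated replicate 2 (adjusted p = 0.0877) or 3 (adjusted p = 0.212), and the other MAPKAP1 probes differed by 0.04 and 0.06 in that line.

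**Figure D4:**
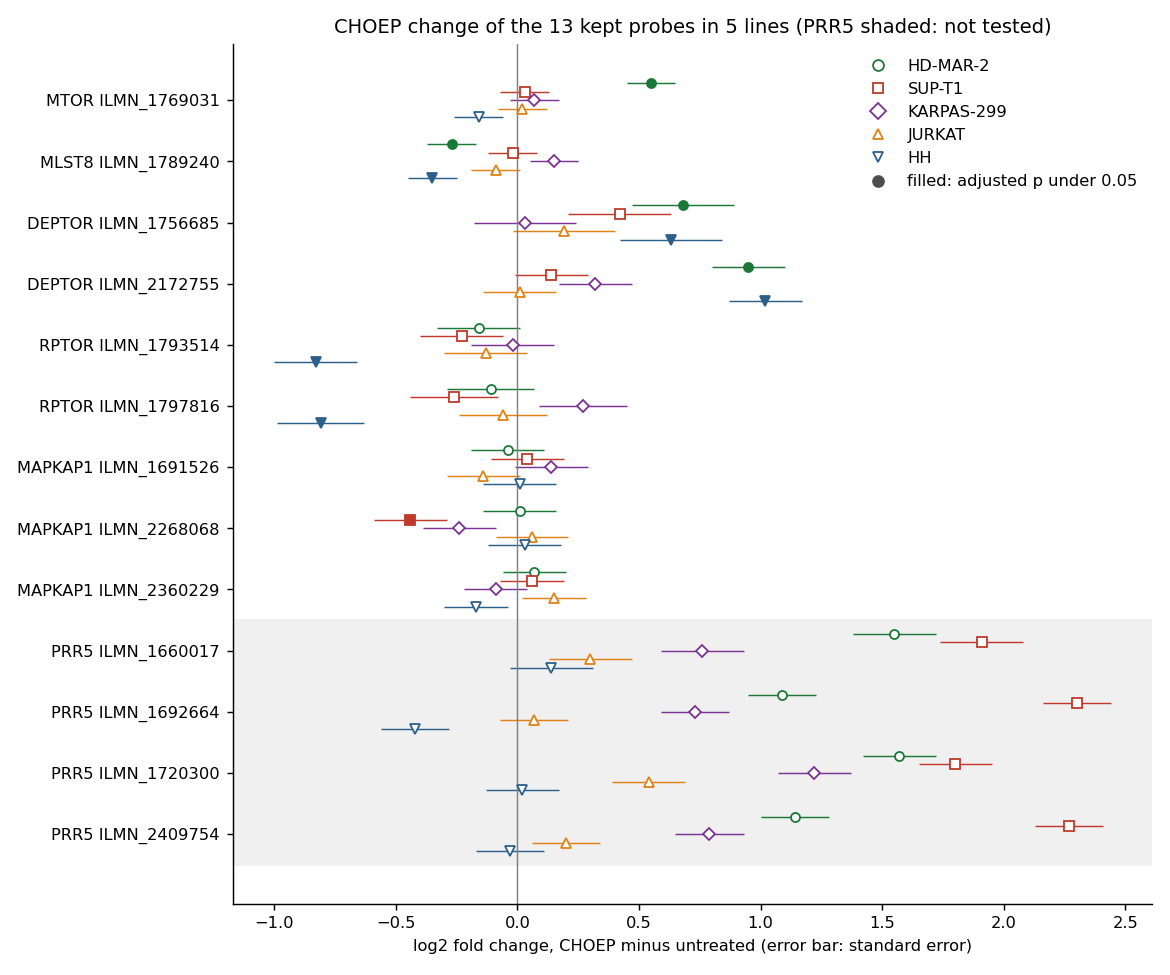
Log2 fold change, CHOEP minus untreated, of the 13 kept probes in 5 lines, with the standard error as error bar; filled markers passed an adjusted p under 0.05, and the shaded PRR5 rows were not tested. Fitted values are drawn also where a group was not detected. PRR5 reaches 2.30 in SUP-T1, DEPTOR ILMN_2172755 stands apart in HH and HD-MAR-2, and RPTOR in HH.

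The other genes of the pathway were read from a list of 63, of which 56 could be tested. On average over the lines 16 rose and 6 fell, with a median change of 0.04, against -0.01 over all genes. When arrays were scaled to the median of all probes this split became 6 up and 16 down, and with the median of probes detected on all arrays 18 up and 5 down. The share of all genes that passed on average was 17.8% up and 20.1% down, against which the counts by function below are also to be read. Scaling to the median of all probes moved the median change of all genes by -0.10 on average, with -0.19 for HD-MAR-2 and -0.17 for SUP-T1, and scaling over detected probes by 0.12 and 0.13 in these lines. In HD-MAR-2 16 rose and 5 fell (all genes 14.9% up, 15.8% down). SUP-T1 had 11 up and 4 down (12.3% and 13.9%), HH 10 up and 3 down (9.89% and 9.64%), KARPAS-299 3 up and 3 down (2.8% and 4.02%), and JURKAT 2 up and 0 down (0.12% and 0.024%). The 2 raised in JURKAT were DDIT4 and PIK3IP1, which the study chose for rising on these arrays, so that count restates the choice. Genes chosen this way also count among those raised on average and in each other line.

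Of 3 tested upstream inhibitors of the pathway 2 rose, and both were chosen by the study for rising on these arrays, so that this count restates the choice. PIK3IP1, which restrains PI3K, rose by 2.39 on average (standard error 0.09, adjusted p = 8.16e-17), and DDIT4, which inhibits mTORC1 through the TSC complex, by 2.10 (standard error 0.06, adjusted p = 3.48e-19). The third, INPP5D, differed by 0.12 (adjusted p = 0.242). CASTOR1 below was also selected by the study on these arrays, and its rise is not independent evidence. In HD-MAR-2 and HH, PIK3IP1 rose by 4.40 and 3.58 and DDIT4 by 3.56 and 3.19. In KARPAS-299, PIK3IP1 was higher by 0.67 (adjusted p = 0.0468) and DDIT4 differed by 0.17 (adjusted p = 0.632).

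Of 16 tested genes of the GATOR and KICSTOR complexes and the amino acid sensors, 4 rose and 3 fell. CASTOR1, the cytosolic arginine sensor, rose by 0.78 (adjusted p = 2.04e-10) and SESN1, a leucine-binding inhibitor induced by p53, by 0.40 (adjusted p = 3.64e-05). WDR24 rose by 0.17, while SESN3, SEH1L and KICS2 fell by 0.30, 0.17 and 0.14. SESN3 was detected on all 6 arrays in HH alone, and there it fell by 1.38 (adjusted p = 4.79e-08). Of 12 Rag GTPase and Ragulator genes, which bring mTORC1 to the lysosome, 6 rose and 1 fell: LAMTOR4 rose by 0.32, RRAGB by 0.28 and RRAGA by 0.24, and FNIP2 fell by 0.28 with most of its change in KARPAS-299 (-1.04, adjusted p = 0.000579). KICS2 fell mostly in SUP-T1 (-0.60, adjusted p = 0.000175). With scaling to the median of all probes LAMTOR4 (0.14), RRAGB (0.19), RRAGA (0.07) and WDR24 (0.06) no longer passed. With the median of probes detected on all arrays, SESN3 (-0.13, adjusted p = 0.182) and KICS2 (-0.08, adjusted p = 0.2) did not pass. With the replicate block WDR24 (adjusted p = 0.0922) and KICS2 (adjusted p = 0.0611) did not pass. With arrays left out 1 at a time, WDR24 and KICS2 also lost their calls in 12 and 7 of the 30 fits.

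Among 12 mTORC1 substrates and outputs, 2 rose and 2 fell. ULK1, the autophagy kinase, rose by 0.37 (adjusted p = 1.13e-05) and the S6 kinase gene RPS6KB2 by 0.29 (adjusted p = 0.0011), while the cap-binding factor EIF4E fell by 0.33 (adjusted p = 0.00294) and RPS6KB1 by 0.18 (adjusted p = 0.0279). The call of RPS6KB1 was lost in 3 of the 30 fits that each left out 1 array. That of RPS6KB2 was lost under scaling to the median of all probes (0.10, adjusted p = 0.294). Among 5 mTORC2 substrates and their partner kinase, PRKCA rose by 0.40 (adjusted p = 1.65e-05) and SGK1 by 0.15 (adjusted p = 0.0437). The SGK1 call was lost in 17 of the 30 fits that each left out 1 array. SGK1, a known target of glucocorticoids, was read by its brightest probe. It rose in HD-MAR-2 (0.42, adjusted p = 0.0138) and in HH, where it was detected in 3 treated and 0 untreated cultures (adjusted p = 0.00428). In KARPAS-299 it fell by 0.51 (adjusted p = 0.0107). Among its other probes, ILMN_3305938 was detected in 2 treated and 0 untreated HH cultures. ILMN_3229324, detected on 24 arrays, was detected in no HH culture. None of the 4 TSC and RHEB genes or of the 4 genes of AKT1S1 and the mTOR assembly factors passed on average.

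**Figure D5:**
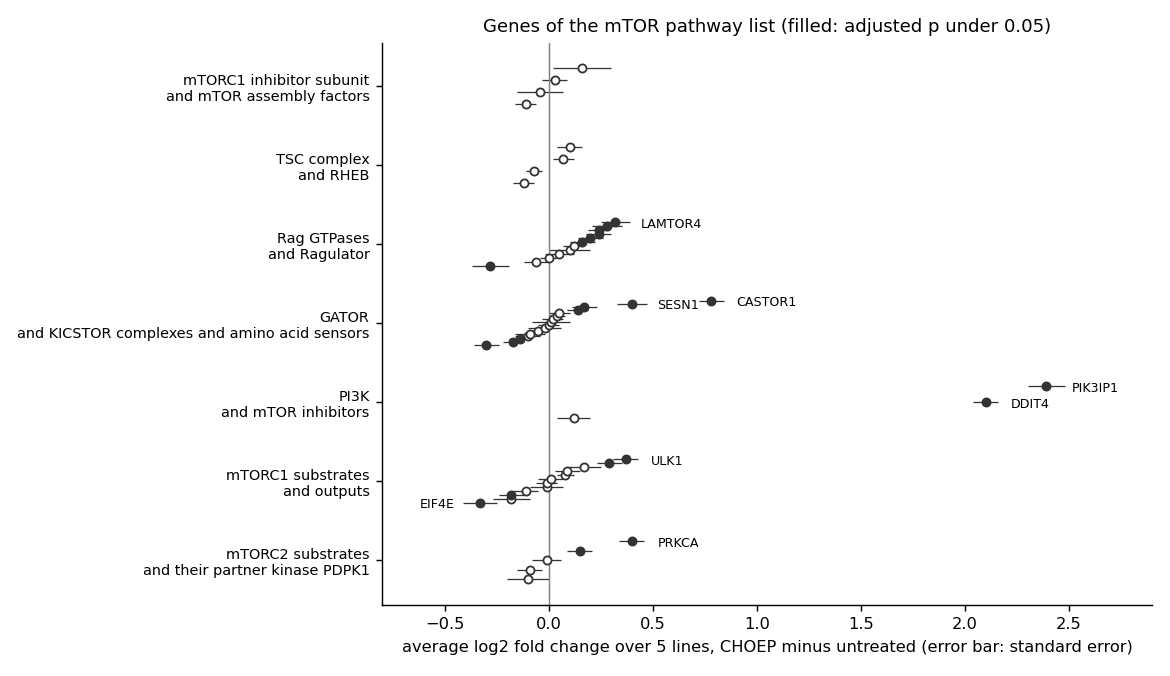
Average log2 fold change over 5 lines, CHOEP minus untreated, of the 56 tested pathway genes in 7 lists (standard error as error bar, filled where the adjusted p was under 0.05, names where such a change exceeded 0.3). PIK3IP1 (2.39) and DDIT4 (2.10) lie far from the rest, and CASTOR1 follows at 0.78.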

How the data were processed

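The authors deposited signal intensities of 30 Illumina HumanHT-12 v4 arrays as read by BeadStudio (version 3 in the submitters' notes), not normalised, with detection p-values beside them. The authors also deposited log2 values from robust spline normalisation in lumi, used here as an alternative. Probes were named from the platform annotation: of 47323 with values, 30113 have 1 symbol, 8 several and 17202 none. No sequence or position of the probes was used here.

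Intensities were background-corrected with the detection p-values, quantile-normalised and converted to log2 by neqc (offset 16) in limma 3.58.1 and R 4.3.3. A detection p under 0.01 was required on 3 or more arrays, which left 22652 probes (of which 17125 have 1 symbol), and a gene was read by its probe of highest mean signal. A limma model of 10 group means, with 20 residual degrees of freedom, gave all differences, adjusted by Benjamini-Hochberg over the kept probes. Groups came from the sample labels. Each p-value rests on 1 spread per probe, pooled over the 10 groups of 3 arrays and drawn by limma towards that of other probes. It is therefore not the spread within a single line, and the number of arrays limits the precision. The sample titles number the replicates, called cultures here, and do not say whether they were grown separately. The fit was also tested on simulated data, and the outcome is not given here. The members, lists and named genes (all members, up to 3 genes up and 3 down per list by average change, the genes the study listed, neighbours of PRR5, and the 5 genes most correlated with it) were chosen with earlier results of these data known.

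Same-numbered treated and untreated cultures deviated together (correlation over 0.1) in 3 of 15 pairs, so replicate numbers were not taken as pairs. Alternatives were quantile normalisation with no background step, the authors' values, 2 median scalings (that over probes detected on all arrays was added after seeing the data), an offset of 50, other detection filters, any probe of a gene, normalisation within chips, an intensity trend, a replicate block, a 2-fold threshold, each line alone, lines as replicates, and each array left out.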

Additional observations from a re-analysis of the deposited data

Results flagged for a closer look

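The CHOEP effect differed between the 5 lines, by limma's F test, for MTOR (adjusted p = 0.00505), DEPTOR by probe ILMN_2172755 (adjusted p = 0.000513), RPTOR by probe ILMN_1797816 (adjusted p = 0.0188) and MLST8 (adjusted p = 0.0423), which makes 3 of the 5 members when each is read by its brightest probe. The same test passed for 35.1% of all genes. With scaling to the median of all probes MTOR (adjusted p = 0.414), RPTOR (0.116) and MLST8 (0.308) did not pass, and DEPTOR by ILMN_2172755 did (0.0066). That DEPTOR probe passed the detection filter only through treated HH and HD-MAR-2, where it is high. With no filter its F test gave an adjusted p of 0.000881. RPTOR was also lost without HH untreated replicate 2 (adjusted p = 0.0604), and MLST8 in 17 of the 30 fits that each left out 1 array. The brighter DEPTOR probe, ILMN_1756685, did not pass (adjusted p = 0.262), nor did the other RPTOR probe (0.0569). MTOR was higher with CHOEP in HD-MAR-2 (0.55), DEPTOR in HH and HD-MAR-2, and RPTOR was lower in HH (-0.81).

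PRR5 by probe ILMN_1692664 was lower with CHOEP in every HH culture (-0.42) and higher in every culture of HD-MAR-2 (1.09), KARPAS-299 (0.73) and SUP-T1 (2.30). This difference between lines was not tested, since PRR5 was chosen by its CHOEP effect, and the HH levels lay at the detection limit.

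Among the pathway genes the effect differed between lines for DDIT4 (adjusted p = 1.63e-12), PIK3IP1 (1.35e-10), SESN3 (9.77e-06), CASTOR1 (3.85e-05), SGK1 (0.000477), RRAGA (0.00344), KICS2 (0.00818), SESN1 (0.0118), SEH1L (0.0156), FNIP2 (0.0159), RPS6KB2 (0.0295) and ULK1 (0.0393), all adjusted p-values of limma's F test. Under scaling to the median of all probes 4 of these 12 genes still passed (DDIT4, PIK3IP1, SESN3 and CASTOR1). Of these, DDIT4, PIK3IP1 and CASTOR1 were chosen by the study for their CHOEP change on these same arrays. Their F tests are therefore not independent of that choice. With single arrays left out ULK1 was lost in 14 of 30 fits and RPS6KB2 in 4, and FNIP2 without KARPAS-299 CHOEP replicate 3 (adjusted p = 0.073). By its brightest probe SGK1 was higher with CHOEP in HH and HD-MAR-2 and lower in KARPAS-299.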

How the results depend on the processing

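The number of members raised on average was 1 and became 2, with MTOR (adjusted p = 0.0367), with the authors' values, 0 with a 2-fold threshold and 0 with lines as replicates, and it ranged from 1 to 2 with single arrays left out (2 without HH untreated replicate 2 or SUP-T1 untreated replicate 2). The number lowered on average was 1. It was 2, RPTOR included, with quantile normalisation without background correction, median scaling, an offset of 50 or any probe of a gene, 0 with median scaling over detected probes, no detection filter, a 2-fold threshold or lines as replicates, and it ranged from 0 to 2 with single arrays left out. With the replicate number as a block it was 0, and same-numbered cultures do not pair. The number whose effect differed between lines (3) was 0 under median scaling and ranged from 1 (without HH untreated replicate 2) to 3. The 3 raised pairs of gene and line became 0 under median scaling or a 2-fold threshold, and the 3 lowered pairs 0 under the threshold.

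PRR5 changed in HH by -0.21 with the authors' values and by -0.23 without background correction, and under median scaling its change was 0.81 for HD-MAR-2 and 1.97 for SUP-T1. The pathway list had 6 up and 16 down under median scaling, and 0 up and 0 down with lines as replicates, where 11 passed an unadjusted p under 0.05. SGK1 became 0 under median scaling (adjusted p = 0.991). With lines as replicates 1 of the 5 members, DEPTOR, had an unadjusted p under 0.05 (0.00961), and the lowest adjusted p over all probes was 0.299. The DEPTOR probe read there was not detected in JURKAT, KARPAS-299 or SUP-T1. The cause of these changes was not tested. DEPTOR, RICTOR, PRR5L and PRR5 in HH were limited by signal near the background.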
